A study of Arabidopsis thaliana with 10 samples.

Results

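AT1G52120, AT5G38820, AT2G14247 and AT1G73120 are 4 Arabidopsis thaliana genes that were taken as markers of iron deficiency in roots. They were chosen by locus because earlier results of these same arrays had shown them higher in wild type roots without iron, and the platform annotation gives each of them 1 probe set. The contrast between those that stay induced in the mutant bts-3 without iron and those that fall was also set with these results known. The values that chose the genes and the contrast are therefore the values given here. Their levels and fold changes are a description with no p-value, and where the number of them past a threshold is printed beside the share of all probe sets, nothing is read from it. They are 4 of the 16550 genes with a probe set of their own, and their 4 probe sets are among the 17481 that carried at least 1 named gene, of 28583 in the table. The gene table gives all 4 by locus tag alone, and gives no product or function for them.

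Roots of the wild type (WT, Col) and of the mutant bts-3 were compared on 10 Affymetrix arrays of total RNA. All plants had 2 weeks of growth on B5 medium and then 3 days (72 h) on medium with iron (+Fe) or without it (-Fe), after which roots were separated from shoots and frozen. The 4 groups were WT +Fe and WT -Fe with 2 arrays each, and bts-3 +Fe and bts-3 -Fe with 3 arrays each, all biological replicates per the labels. The labels do not state the lesion in bts-3, the number of plants pooled per sample or the iron content of either medium. BTS had no probe set of its own among the named ones, so its transcript was not analysed here and the mutant labels were not checked by it.

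Roots that run short of iron switch on a set of genes for reducing, importing and mobilising it. The set is driven by a cascade of basic helix-loop-helix (bHLH) transcription factors, among them FIT and the bHLH Ib factors such as BHLH101. BRUTUS (BTS), after which bts-3 is named, is an E3 ubiquitin ligase known to restrain this response by targeting bHLH factors near the top of the cascade. For a transcript that follows iron status in WT, the design asks how high it stands in bts-3 with iron present, and how much of its response remains there when iron is withdrawn.

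Values are the authors' log2 expression values, in which a difference of 1 is a doubling. Array medians lay between 5.27 and 5.45 and lower quartiles between 2.92 and 3.26, so a gene near 3 was close to the dim end of the array, where fold changes are compressed. A level of 1 gene is set only against other levels of the same gene, because probe sets differ in their binding. Errors after ± are standard deviations (SD) over the arrays of a group. Each fold change is a difference of group means with the standard error (SE) of a linear model (limma) over all 10 arrays. In RNA from whole roots, fewer cells of a type and less RNA per cell cannot be told apart.

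In WT, all 4 genes stood higher without iron, by 5.97 (AT1G52120), 5.17 (AT5G38820), 4.38 (AT2G14247) and 2.98 (AT1G73120) on the log2 scale. In bts-3 the same withdrawal of iron went with differences of -0.23 for AT1G52120 and 0.25 for AT5G38820, both smaller than the spread between arrays, with a level of AT2G14247 that was higher by 2.83, and with a difference of -1.95 for AT1G73120. The genes also differed in bts-3 on iron, where AT1G52120, AT5G38820 and AT1G73120 were already high and AT2G14247 was not. On every bts-3 -Fe array all 4 genes remained above both WT +Fe arrays. AT1G73120 was therefore lower than on bts-3 +Fe without returning to the WT +Fe level.

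**Figure D1:**
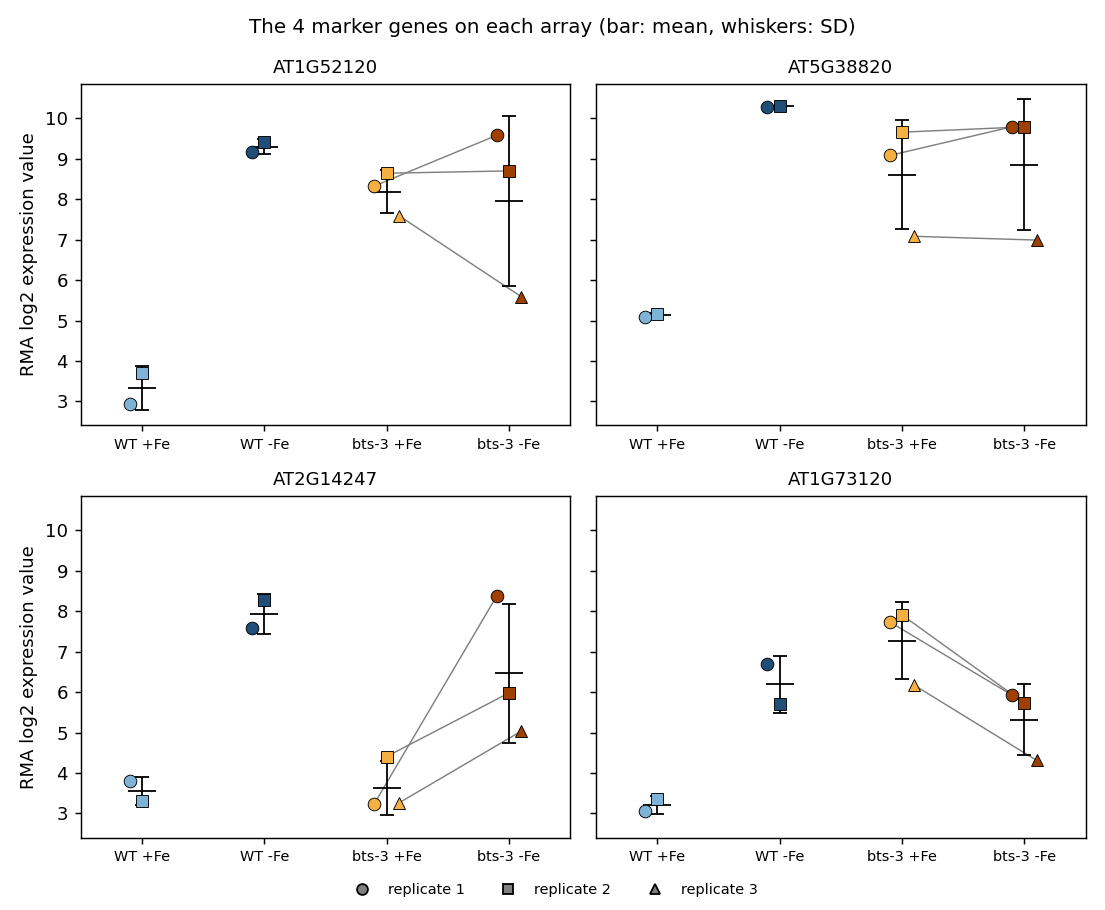
RMA log2 expression value of each gene on each of the 10 arrays, by group. Circles, squares and triangles are replicates 1, 2 and 3, horizontal bars are group means, whiskers are SD, and grey lines join same-numbered bts-3 arrays. AT2G14247 was low on bts-3 +Fe and higher on bts-3 -Fe, whereas AT1G73120 was highest on bts-3 +Fe.

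AT2G14247 (probe set 13392877) is the marker that kept an iron response in the mutant. On WT +Fe its values were 3.79 and 3.31, and on WT -Fe they were 7.58 and 8.28. On bts-3 +Fe they were 3.24, 4.41 and 3.26 for replicates 1 to 3, and on bts-3 -Fe they were 8.38, 5.98 and 5.04. Both +Fe groups lay at the low end and overlapped each other, while every -Fe array lay above every +Fe array in either genotype. The highest bts-3 -Fe array, replicate 1, was above both WT -Fe arrays, and the other two were below them.

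The mean levels of AT2G14247 were 3.55 ± 0.34 (SD, n = 2) on WT +Fe, 7.93 ± 0.50 (SD, n = 2) on WT -Fe, 3.64 ± 0.67 (SD, n = 3) on bts-3 +Fe and 6.46 ± 1.72 (SD, n = 3) on bts-3 -Fe. In descending order the groups ran WT -Fe, bts-3 -Fe, bts-3 +Fe, WT +Fe. The first pair overlapped and so did the last pair, and between the middle pair lay a gap of 0.63. The fold change for -Fe against +Fe was 4.38 (SE 0.84) in WT and 2.83 (SE 0.69) in bts-3, and the bts-3 response minus the WT response was -1.55 (SE 1.09). Against WT, bts-3 differed by 0.08 (SE 0.77) on +Fe and by -1.47 (SE 0.77) on -Fe. The same-numbered bts-3 arrays differed by 5.13, 1.57 and 1.78, so replicate 1 carried much of the mean, and without its -Fe array the bts-3 response was 1.87.

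AT1G73120 (probe set 13386681) ran the other way in the mutant. Its values were 3.06 and 3.36 on WT +Fe and 6.69 and 5.70 on WT -Fe. They were 7.74, 7.91 and 6.17 on bts-3 +Fe and 5.93, 5.73 and 4.31 on bts-3 -Fe. The bts-3 +Fe arrays included the highest values of the series for this gene, and replicates 1 and 2 there lay above both WT -Fe arrays. Each bts-3 -Fe array lay below each bts-3 +Fe array, with a gap of 0.25, and above both WT +Fe arrays, with a gap of 0.95.

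The mean levels of AT1G73120 were 3.21 ± 0.22 (SD, n = 2) on WT +Fe, 6.19 ± 0.70 (SD, n = 2) on WT -Fe, 7.27 ± 0.96 (SD, n = 3) on bts-3 +Fe and 5.32 ± 0.88 (SD, n = 3) on bts-3 -Fe. The order was bts-3 +Fe, WT -Fe, bts-3 -Fe, WT +Fe. The first and the second of these overlapped, as did the second and the third, and only WT +Fe stood clear of its neighbour. Without iron the fold change was 2.98 (SE 0.63) in WT and -1.95 (SE 0.52) in bts-3, which makes the bts-3 response minus the WT response -4.93 (SE 0.82). The mutant differed from WT by 4.06 (SE 0.58) on +Fe and by -0.87 (SE 0.58) on -Fe. The same-numbered bts-3 arrays differed by -1.81, -2.18 and -1.86, a narrower spread than for the other 3 genes. AT1G73120 was also the one gene of the 4 whose mean was higher on bts-3 +Fe than on WT -Fe, by 1.08.

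AT1G52120 (probe set 13378538) was high on every array but those of WT +Fe. Its values were 2.95 and 3.71 on WT +Fe and 9.16 and 9.43 on WT -Fe. They were 8.33, 8.64 and 7.59 on bts-3 +Fe and 9.58, 8.70 and 5.59 on bts-3 -Fe. Replicate 3 on bts-3 -Fe stood well below the other two of its group, yet above both WT +Fe arrays by at least 1.88. The bts-3 -Fe arrays spanned the values of bts-3 +Fe and of WT -Fe.

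The mean levels of AT1G52120 were 3.33 ± 0.54 (SD, n = 2) on WT +Fe, 9.29 ± 0.19 (SD, n = 2) on WT -Fe, 8.19 ± 0.54 (SD, n = 3) on bts-3 +Fe and 7.96 ± 2.10 (SD, n = 3) on bts-3 -Fe. The order was WT -Fe, bts-3 +Fe, bts-3 -Fe, WT +Fe, in which the 2 bts-3 groups did not differ beyond their spread. The fold change for -Fe against +Fe was 5.97 (SE 0.97) in WT and -0.23 (SE 0.79) in bts-3, and the difference of the responses was -6.20 (SE 1.26). With iron bts-3 was above WT by 4.86 (SE 0.89), and without iron the difference was -1.34 (SE 0.89). The same-numbered bts-3 arrays differed by 1.25, 0.06 and -2.01, so their signs were mixed. Without the bts-3 -Fe replicate 3 array the bts-3 response was 0.95.

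AT5G38820 (probe set 13508188) shared that pattern. Its values were 5.09 and 5.17 on WT +Fe and 10.28 and 10.30 on WT -Fe. They were 9.08, 9.66 and 7.08 on bts-3 +Fe and 9.79, 9.79 and 6.99 on bts-3 -Fe. Replicate 3 was the lowest array of both bts-3 groups, and the 2 groups overlapped. All 6 bts-3 arrays lay above both WT +Fe arrays and below both WT -Fe arrays.

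The mean levels of AT5G38820 were 5.13 ± 0.05 (SD, n = 2) on WT +Fe, 10.29 ± 0.02 (SD, n = 2) on WT -Fe, 8.61 ± 1.35 (SD, n = 3) on bts-3 +Fe and 8.86 ± 1.62 (SD, n = 3) on bts-3 -Fe. In the order WT -Fe, bts-3 -Fe, bts-3 +Fe, WT +Fe, the middle 2 groups did not differ beyond their spread. Iron withdrawal gave fold changes of 5.17 (SE 0.93) in WT and 0.25 (SE 0.76) in bts-3, and the difference of the responses was -4.92 (SE 1.20). Between the genotypes, bts-3 minus WT was 3.48 (SE 0.85) on +Fe and -1.44 (SE 0.85) on -Fe. The same-numbered bts-3 arrays differed by 0.71, 0.13 and -0.09. All 3 differences were smaller than the spread between arrays within either bts-3 group.

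Replicate 3 of bts-3 gave the lowest value of its group in 7 of the 8 combinations of gene and medium, and all 4 genes were lowest there on -Fe. Root hair markers (EXPA7, EXPA18 and 2 others, 4 of 8 listed loci measured) had their lowest means on the same arrays. The mean log2 value was 7.93 on bts-3 +Fe replicate 3 and 8.45 on bts-3 -Fe replicate 3. The other 8 arrays had means between 8.94 and 9.45 for that list. Within it, EXPA7 went the other way on bts-3 -Fe, with 8.18 on replicate 3 and 7.95 on replicate 2. The summed log2 level of these 4 markers ran from 36.3 to 37.6 on WT +Fe, 37.7 to 37.8 on WT -Fe, 31.7 to 36.5 on bts-3 +Fe and 33.8 to 36.2 on bts-3 -Fe. Some iron-list genes were also lowest of their group on both arrays, +Fe then -Fe: AT3G12900 (9.78, 8.14), BHLH101 (6.001, 6.59) and AT1G74770 (10.69, 10.59). bHLH121 was highest there (9.97, 10.40). The root markers had their lowest mean of the 10 arrays, 6.60, on bts-3 +Fe replicate 3, and 7.02 on bts-3 -Fe replicate 3. The share of all probe sets lowest on replicate 3 was not computed. The part of the root hair markers in the levels of the 4 genes was not tested. Without both replicate 3 arrays, the bts-3 response was 3.35 (SE 0.70) for AT2G14247, -1.996 (SE 0.32) for AT1G73120, 0.66 (SE 0.35) for AT1G52120 and 0.42 (SE 0.23) for AT5G38820. AT2G14247 still had the highest bts-3 response of the 4 genes and AT1G73120 the lowest.

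Of 14 shoot loci listed, RCA (Rubisco activase) and LHCB4.1 (a chlorophyll-binding antenna protein) were measured. Their summed log2 level was 15.1 to 16.1 on WT +Fe, 12.8 to 13.6 on WT -Fe, 14.8 to 14.95 on bts-3 +Fe and 13.0 to 15.1 on bts-3 -Fe. In WT their fold changes on -Fe were -1.42 and -0.94, opposite in sign to those of the 4 genes, and their part in the result was not tested. The 4 root markers measured of 12 listed had summed log2 levels of 29.4 to 29.8 on WT +Fe, 28.8 to 29.4 on WT -Fe, 26.4 to 28.4 on bts-3 +Fe and 27.4 to 29.6 on bts-3 -Fe. No gene of the 3 marker lists was called in any comparison at a limma adjusted p under 0.05.

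Because these contrasts chose the 4 genes, the counts of them that follow only stand beside the share of all probe sets. At that threshold, with Benjamini-Hochberg adjustment over all 17481 probe sets, calls were few in every comparison. For WT -Fe against WT +Fe, 0.0286% of all probe sets were called and 0 of the 4 genes. For bts-3 -Fe against +Fe the figures were 0.0229% and 0, for bts-3 against WT on +Fe 0.269% and 1 (AT1G73120), on -Fe 0% and 0, and for the difference of the responses 0.00572% and 0. At an unadjusted limma p under 0.05, 8.37% of all probe sets passed for the WT response, 4.96% for the bts-3 response, 8.93% and 6.65% for bts-3 against WT on +Fe and -Fe, and 4.46% for the difference of responses. Groups of 2 and 3 arrays often separate without overlap: in WT 23.2% of probe sets did so upward on -Fe, as did all 4 genes. In bts-3, 4.98% did so upward on -Fe, among them AT2G14247, and 3.28% downward, among them AT1G73120. On +Fe 13.5% were higher in bts-3 without overlap, among them 3 of the 4 genes, and on -Fe 11.3% were lower, among them AT5G38820.

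The same-numbered bts-3 arrays went together across the whole table, so the bts-3 comparison was also fitted with the replicate number as a block. This block was built to leave the group means as they are, so the fold changes of the 4 genes were the same by construction. Only their SE could change, and they were smaller with it. In bts-3, the SE of the response went from 0.76 to 0.18 for AT5G38820, from 0.52 to 0.25 for AT1G73120, from 0.79 to 0.50 for AT1G52120 and from 0.69 to 0.59 for AT2G14247. Calls of the 4 genes under this block are not given, since they would be made on the values that chose the genes.

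Across the 10 arrays, AT1G52120 and AT5G38820 followed each other most closely, with Pearson r = 0.961 and Spearman rho = 0.964. AT2G14247 and AT1G73120 were the pair least alike, with r = 0.155 and rho = -0.079. Within the 6 bts-3 arrays alone their r was -0.394 and their rho -0.6, against r = 0.868 for AT1G52120 and AT5G38820. AT1G73120 had r = 0.828 with AT1G52120 but a rho of 0.479, and AT2G14247 had r = 0.63 and rho = 0.758 with AT1G52120. These coefficients describe 10 arrays that fall into 4 groups, and they mostly follow the group levels.

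The genes most like each marker were taken as the 5 highest Pearson r over the 10 arrays among 16721 other single-gene probe sets. Nothing about function or control is read from the likeness, and because the genes were picked on it their values are a description. For AT1G52120 they were AT3G12900 (r = 0.981), AT1G74770 (0.974), AT1G51840 (0.971), AT4G19370 (0.964) and AT5G38820 itself (0.961). For AT5G38820 they were AT3G07720 (r = 0.992), UGT72E1 (0.990), which encodes a UDP-glucosyl transferase, scpl20 (0.989), a serine carboxypeptidase-like gene, AT1G74770 (0.989) and AT4G17680 (0.985). AT1G74770 was thus shared by both. In these genes the WT response ran from 1.45 to 6.19, and the bts-3 response from -0.10 to 0.83.

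For AT2G14247 the most alike were AT1G11540 (r = 0.990), CDI (0.946), named for induction by cadmium, AT3G20590 (0.945), AT4G27790 (0.938) and AT5G25330 (0.938). AT1G11540 had values of 8.497 and 8.31 on WT +Fe, 9.23 and 9.52 on WT -Fe, 8.24, 8.49 and 8.31 on bts-3 +Fe, and 9.47, 8.93 and 8.55 on bts-3 -Fe. As with AT2G14247, both -Fe groups lay above both +Fe groups and the +Fe groups overlapped, over a far smaller range. Its fold change was 0.97 (SE 0.28) in WT and 0.64 (SE 0.23) in bts-3, and -0.06 (SE 0.25) for bts-3 against WT on +Fe. AT3G20590 differed from AT2G14247 in standing higher on bts-3 +Fe than on WT +Fe without overlap, by 0.61 (SE 0.36).

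For AT1G73120 the most alike were AT1G07885 (r = 0.979), AT3G09010 (0.942), AT5G52450 (0.931), AT4G10510 (0.930) and AT5G08350 (0.917). AT1G07885 had values of 3.18 and 2.92 on WT +Fe, 5.82 and 4.90 on WT -Fe, 6.02, 6.52 and 5.20 on bts-3 +Fe, and 4.49, 4.89 and 3.65 on bts-3 -Fe. Like AT1G73120 it was highest on bts-3 +Fe and lower, without overlap, on bts-3 -Fe. Its fold change was 2.32 (SE 0.48) in WT, -1.57 (SE 0.39) in bts-3 and 2.87 (SE 0.44) for bts-3 against WT on +Fe. AT3G09010 and AT5G52450 followed the same order of means over less than 1 unit, with bts-3 responses of -0.23 and -0.18. Leaving out the 2 arrays farthest from the median of each marker left every one of the 20 likeness coefficients at or above 0.856.

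**Figure D2:**
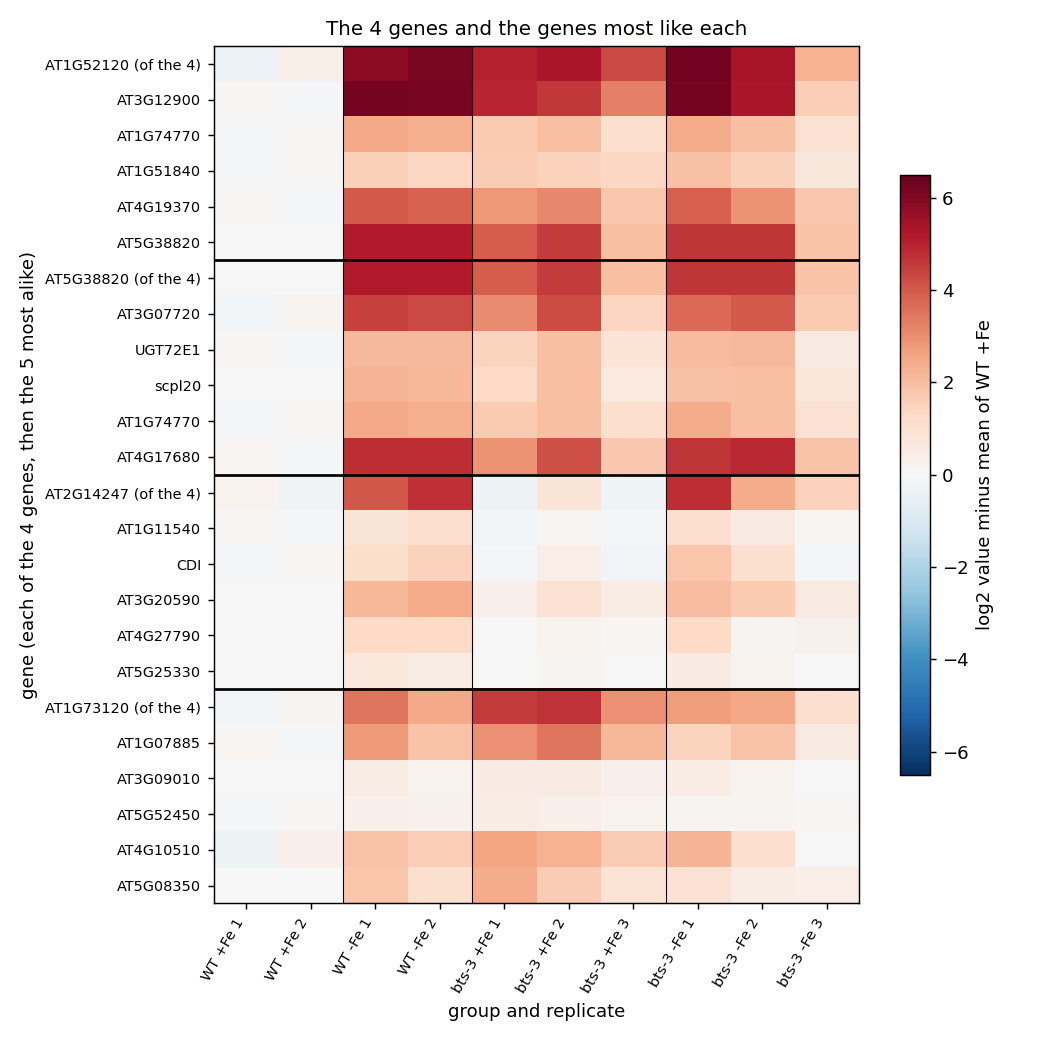
Log2 value of each of the 4 genes and of the 5 genes most like it on the 10 arrays, minus the mean of the WT +Fe arrays of the same gene. Colour gives that difference from blue (lower) to red (higher). The AT1G73120 block is reddest on bts-3 +Fe, and the AT2G14247 block is pale there.

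Other genes of the iron-deficiency response, from 5 lists of 70 loci written from general knowledge, were available as 32 probe sets of 31 loci. In WT, 28 of the 32 were higher on -Fe and the median fold change was 1.86, against 0.01 over all probe sets tested. In bts-3, 26 of the 32 had a positive fold change, and the median was 0.22 against 0.02 over all. On +Fe the median for bts-3 against WT was 0.76, and on -Fe it was -0.51, both against -0.01 over all. The only list gene past the adjusted threshold was BHLH101, for the WT response and for bts-3 against WT with iron, beside 0.0286% and 0.269% of all probe sets. In the other 3 comparisons 0 of the 32 passed it. At an unadjusted limma p under 0.05, 4 of the 32 passed for the bts-3 response, beside 4.96% of all probe sets. For bts-3 against WT without iron 5 passed, beside 6.65%, and for the difference of the responses 14, beside 4.46%. With the replicate block in bts-3, 14 of the 32 were called for the WT response, 9 for bts-3 against WT with iron and 8 for the difference of the responses, beside 0.606%, 1.81% and 0.200% of all probe sets. For the bts-3 response it called 0 of the 32 and 0.252% of all probe sets. All comparisons share their error, and such a block takes the spread between bts-3 replicates out of it. The WT arrays were not paired, so the calls for the WT response and the difference of the responses rest on an error without that spread. For bts-3 against WT the calls describe these plants only. The 4 markers are not in these lists.

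BHLH101, a bHLH Ib factor, was at 3.15 and 3.47 on WT +Fe, 7.78 and 7.77 on WT -Fe, 7.27, 7.78 and 6.001 on bts-3 +Fe, and 8.04, 7.14 and 6.59 on bts-3 -Fe. Its values were low on WT +Fe only, as for AT1G52120 and AT5G38820. It rose by 4.46 (SE 0.54, limma adjusted p = 0.0378) in WT without iron. On +Fe it was higher in bts-3, by 3.71 (SE 0.50, limma adjusted p = 0.0157). The call in WT was lost without any 1 of the 4 WT arrays, of bts-3 +Fe replicate 1 or of bts-3 -Fe replicate 2. On +Fe the list had 0 calls without either WT +Fe array or bts-3 +Fe replicate 1.

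The uptake list, 5 probe sets of 4 loci of 22 listed, had median fold changes of 4.34 in WT, 0.25 in bts-3 and 1.91 for bts-3 against WT on +Fe. Its members included AT3G12900 at 6.19 (SE 1.14, limma adjusted p = 0.116) and AT3G58060 at 5.70 (SE 1.02, limma adjusted p = 0.113) in WT, and BGLU42, a beta glucosidase. In bts-3 AT3G12900 was at 0.10 and AT3G58060 at 1.09. The other measured locus of the list was AT1G28680, and the medians do not cover the listed uptake loci that were not measured. The list name was not checked for the 4 measured loci. The medians therefore describe these loci, and not genes of iron reduction or import. The signalling list, 6 of 12 loci, had medians of 2.66, 0.30 and 1.22 in the same 3 comparisons and held BHLH101 and PYE (POPEYE, a bHLH factor). All 6 of its genes were higher on bts-3 +Fe than on WT +Fe without overlap, as were 13.5% of all probe sets. Of 10 loci listed as upstream bHLH, 9 were measured: ILR3, bHLH104, bHLH115, bHLH121, bHLH34, NAI1, AT2G22750, AT2G22760 and AT4G37850. The medians of these 9 were 0.17 in WT, 0.00 in bts-3 and 0.00 on +Fe. The list name was not checked for NAI1, AT2G22750, AT2G22760 and AT4G37850. The medians therefore describe the list, and not factors at the top of the cascade alone. The WT median covers moves both ways, with 6 higher and 3 lower on -Fe. Among them were ILR3 at 0.56, bHLH115 at 0.44, bHLH104 at -0.56, bHLH34 at -0.70 and NAI1 at -0.85.

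The iron lists were also searched for the patterns of AT2G14247 and AT1G73120 in bts-3. Between the bts-3 groups, AT1G47395 (2.12, SE 0.72), AT1G47400 (1.70, SE 0.69) and AT5G05250 (1.29, SE 0.41) were higher on -Fe without overlap, 3 of 32 against 4.98% of all probe sets. They also stood higher on bts-3 +Fe than on WT +Fe without overlap, by 1.79, 0.80 and 1.34, where AT2G14247 differed by 0.08. None of these values passed the adjusted threshold. By same-numbered bts-3 arrays, 6 of the 32 were positive in all 3 pairs and 2 negative in all 3, against 17.0% and 12.5% of all probe sets. Of the 4 markers, AT2G14247 was positive and AT1G73120 negative in all 3.

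AT3G43630, of the storage list (2 of 10 loci measured), was lower on bts-3 -Fe than on bts-3 +Fe without overlap. It was the 1 such probe set of the 32, against 3.28% of all probe sets, so nothing is read from the count. Its values were 3.56 and 3.64 on WT +Fe, 3.26 and 2.87 on WT -Fe, 6.50, 6.04 and 3.80 on bts-3 +Fe, and 3.66, 3.26 and 3.51 on bts-3 -Fe. It was high on bts-3 +Fe replicates 1 and 2, while replicate 3, at 3.80, was near the WT +Fe values. AT1G73120 was high on all 3 of these arrays. Unlike AT1G73120, AT3G43630 was low on WT -Fe. The fold change of AT3G43630 was -1.97 (SE 0.54, limma adjusted p = 0.519) in bts-3 and -0.54 (SE 0.66) in WT. The remaining 10 of 16 loci, listed as other iron-deficiency loci, were all higher on WT -Fe without overlap, as were 23.2% of all probe sets, with a median of 2.10, and had a median of 0.29 in bts-3.

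**Figure D3:**
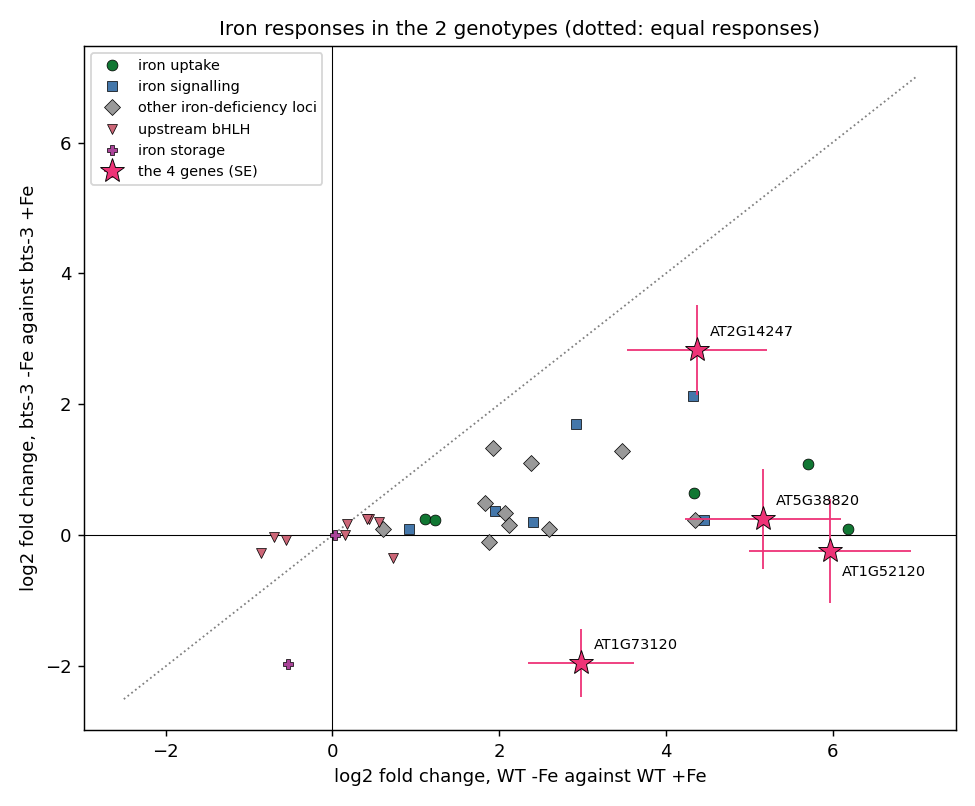
Log2 fold change of -Fe against +Fe in bts-3 (vertical) against that in WT (horizontal) for the 4 genes (stars, bars are SE) and the 32 probe sets of the iron lists (symbols by list). The dotted line marks equal responses, and AT2G14247 lies nearest to it of the 4 genes while AT1G73120, at -1.95, is the lowest of the 4.

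The nearest measured loci on either side of each marker were compared with it, from the order of genes in the RefSeq table. AT1G52130, next to AT1G52120, had values of 2.21 and 2.16 on WT +Fe, 6.58 and 6.33 on WT -Fe, 3.50, 3.94 and 3.73 on bts-3 +Fe, and 6.53, 4.55 and 2.84 on bts-3 -Fe. It was high on WT -Fe, intermediate on bts-3 +Fe and widely spread on bts-3 -Fe, where its replicates ranked as those of AT1G52120 did. Its fold change was 4.27 (SE 0.83, limma adjusted p = 0.120) in WT and 0.92 (SE 0.68) in bts-3, and 1.54 (SE 0.76) for bts-3 against WT on +Fe. Its r with AT1G52120 over the 10 arrays was 0.851 and its rho 0.939.

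AT5G38810, next to AT5G38820, had values of 1.82 and 2.02 on WT +Fe, 5.34 and 4.38 on WT -Fe, 3.11, 4.30 and 2.96 on bts-3 +Fe, and 4.43, 3.47 and 2.68 on bts-3 -Fe. All of its arrays but those of WT +Fe were raised above the 2 WT +Fe arrays, as for its neighbour. Its fold change was 2.94 (SE 0.57, limma adjusted p = 0.119) in WT, 0.07 (SE 0.46) in bts-3 and 1.54 (SE 0.52) on +Fe for bts-3 against WT. Its r with AT5G38820 was 0.911 and its rho 0.952. Whether probes of either neighbour also bind the marker's transcript was not tested.

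The other neighbours had lower correlations with the markers. Beside AT1G52120, AT1G52110 had r = 0.358, AT1G52100 -0.301 and AT1G52140 -0.186, and beside AT5G38820, bZIP43 had 0.3, AT5G38830 0.128 and AT5G38840 -0.092. Around AT2G14247 the nearest measured locus before it was ALDH6B2, 9 genes away, with r = -0.081. AT2G14160, 10 genes away, had r = 0.71, and AT2G14255 and PIP on the other side had -0.033 and -0.483. Around AT1G73120, AT1G73110 had r = 0.322, AT1G73090 0.02, AT1G73130 0.48 and TBL31 0.04. In fold changes, AT2G14160 was higher on WT -Fe without overlap by 0.97 (SE 0.43, limma adjusted p = 0.588), with 0.41 (SE 0.35) in bts-3 and 0.05 (SE 0.40) for bts-3 against WT with iron, the same order of sizes as in AT2G14247. AT1G73110 was lower on bts-3 -Fe than on bts-3 +Fe without overlap, at -0.68 (SE 0.22, limma adjusted p = 0.631), as AT1G73120 was, and differed by -0.05 (SE 0.26) in WT. No neighbour was called in any of the 5 comparisons.

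**Figure D4:**
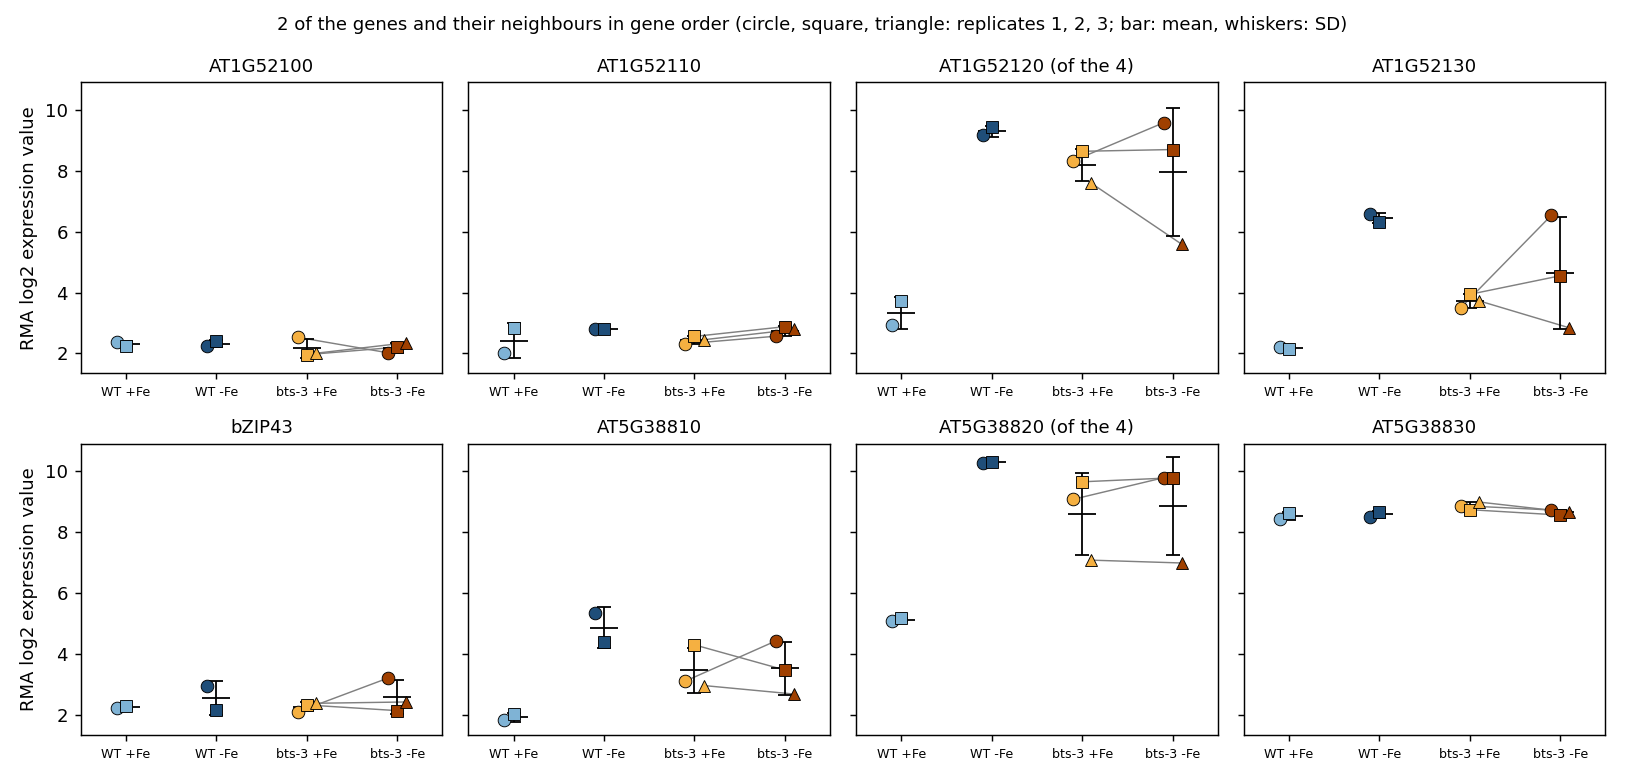
RMA log2 expression value by group for AT1G52120 and AT5G38820 and for measured genes around each in chromosomal order (circles, squares and triangles are replicates 1, 2 and 3, bars are means, whiskers are SD). AT1G52130 and AT5G38810 are higher on WT -Fe than on WT +Fe, as the markers beside them are, and the other 4 neighbours change by under 1 unit between those groups.

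AT1G52120 was set against a list of jacalin-related lectin loci, AT1G52130 among them, and AT5G38820 against a list of AVT6 amino acid transporter loci. Both lists were written from general knowledge, and the gene table does not place either marker in these families. Of 40 lectin loci, 27 were measured, and AT1G52130 had the highest r with AT1G52120. The next highest was AT5G49850 at 0.723, with a WT fold change of 0.83. The other 26 lectin loci had WT fold changes from -0.996 to 0.83 and bts-3 fold changes from -0.95 to 0.98. Between the genotypes with iron they ranged from -1.74 (AT1G52060, SE 0.44, limma adjusted p = 0.171) to 1.41 (AT1G33790, SE 0.42, limma adjusted p = 0.263), both without overlap. None of the 26 was called in any comparison. JAL33 was at the low end of that range in WT. The median over the 27 was -0.17 in WT and 0.16 in bts-3, against 0.01 and 0.02 over all probe sets.

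The 4 AVT6 loci, all measured, stayed within -0.32 to 0.19 in WT, -0.24 to -0.11 in bts-3 and -0.11 to 0.46 for bts-3 against WT on +Fe. Their r with AT5G38820 ran from -0.01 to 0.26, and none was called. Their medians were 0.07, -0.13 and 0.28 in these 3 comparisons.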

How the data were processed

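Root RNA (100 ng per sample, per the labels' protocols) was labelled for 10 Affymetrix arrays. The authors deposited log2 expression values. The submitters' processing notes name RMA and Affymetrix Expression Console. RMA subtracts background, sets arrays to a common distribution and summarises probes. Versions, detection calls and a genome build are not given in the sources used here, so no coordinates are given. The values ran from 0.713 to 14.1. The number of arrays limits the precision.

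The platform annotation paired 16722 probe sets with 1 gene and 759 with several, and left 11102 unnamed. Of the single-gene ones, 16574 matched the RefSeq gene table of TAIR10.1, which was used only for names and for which genes neighbour each other. All 17481 named probe sets were fitted, with no filter on dim values.

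The 4 group means were fitted to all 10 arrays with limma 3.58.1 in R 4.3.3 (lmFit, eBayes) and 5 two-sided comparisons were made, with 6 residual degrees of freedom. Calls are Benjamini-Hochberg adjusted p under 0.05 over all probe sets. The fit was tested on simulated data. The 4 genes, the 10 lists and the comparisons were chosen with earlier results of these data known. The text names the 4 genes, the 5 most alike by Pearson r, the lists by their counts and by the 3 highest and 3 lowest fold changes per comparison, the lectin and AVT6 lists, and the 2 nearest measured loci on each side. Other list genes were named after their values were seen.

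Same-numbered bts-3 arrays on +Fe and -Fe correlated in their deviations from the group means (r = 0.302, 0.511 and 0.389), so the numbers were taken to pair those samples, from the values and without support in the labels. In WT the same check gave r = -0.107, and no pairing was assumed. Alternatives were replicate blocks, other normalizations, array weights, fewer or more probe sets, only the arrays compared, and leaving out arrays.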

Additional observations from a re-analysis of the deposited data

Results flagged for a closer look

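AT1G73120 is listed here because its iron responses went opposite ways in the genotypes, a contrast that was itself set with earlier results of these arrays known. Both WT -Fe arrays lay above both WT +Fe arrays, and all 3 bts-3 -Fe arrays lay below all 3 bts-3 +Fe arrays. The bts-3 response minus the WT response was -4.93. The difference was not tested in other samples, and no p is given because the gene was chosen on these values.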

How the results depend on the processing

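Leaving out 1 array or both bts-3 replicate 3 arrays moved several fold changes of the 4 genes. When 1 array was left out, bts-3 against WT on -Fe ran from -2.15 to -0.16 for AT1G52120, -1.91 to -0.50 for AT5G38820, -2.42 to -0.75 for AT2G14247 and -1.37 to -0.36 for AT1G73120, and the difference of responses of AT2G14247 from -2.505 to -0.83. The sign turned for values near 0: the bts-3 response of AT1G52120 (up to 0.95 without bts-3 -Fe replicate 3), that of AT5G38820 (down to -0.51 without bts-3 +Fe replicate 3) and AT2G14247 on +Fe (down to -0.30 without bts-3 +Fe replicate 2). For WT -Fe against +Fe, 1 iron-list probe set was called as reported (5 of all probe sets), 13 with the replicate block across all arrays (80 of all), 14 with the replicate block in bts-3 alone (106), 9 with array weights (101), 16 with only the arrays compared (157) and 0 with all probe sets tested (4). Without bts-3 replicate 3 on both media, chosen after seeing the data, it was 12 (77 of all), and leaving out 1 array gave 0 to 10 (0 to 88). With iron, bts-3 against WT, the count went from 1 (47 of all) to 8 (118), 9 (316), 4 (279) and 3 (101) under the first 4 of these, to 9 (80) without replicate 3 on both media, and to between 0 and 3 (4 to 93) leaving out 1 array. In the bts-3 response it was 0 (4 of all), or 1 without bts-3 +Fe replicate 3 (13) or without both replicate 3 arrays (12). In the difference of responses it went from 0 (1 of all) to 7 (18) and 8 (35) with the 2 blocks, to 5 (17) without replicate 3 on both media, and to between 0 and 1 (0 to 7) leaving out 1 array. The cause was not tested. The paired fit changed no other call of the iron lists: on -Fe the count of bts-3 against WT stayed at 0. With crossed WT numbers, also chosen after seeing the data, the list counts were 13, 0, 8, 0 and 6 in the 5 comparisons. The counts over all probe sets are not given for that fit, so nothing is read from these. Leaving out a WT array leaves 1 in its group, assumed to vary like the others. Levels near background limit the size of a fold change, as for AT1G52120, AT2G14247 and AT1G73120 on WT +Fe and AT2G14247 on bts-3 +Fe. AT5G38820 on WT +Fe, at 5.09 and 5.17, was closer to the array medians.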
